A study of Mus musculus with 15 samples.

Results

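Integrins are the receptors by which cells grip the extracellular matrix, and each is a pair of an alpha and a beta subunit encoded by separate genes. The subunits described are the products of *Itga1*, *Itga2*, *Itga3*, *Itga5*, *Itga8*, *Itga11*, *Itgav*, *Itgb1*, *Itgb3* and *Itgb5*. Members were chosen by name, with earlier results of these data known. Every non-control probe assigned to a RefSeq transcript of these 10 genes was taken, which gave 14 of the 56605 probes of the array and 10 of the 23462 genes that could be named. *Itga1*, *Itga3*, *Itgb1* and *Itgb3* each had 2 probes. Another 18 genes with integrin names on the array were kept as a list for comparison, among them *Itgbl1*, whose product is a secreted beta-like protein and no subunit.

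RNA of mouse embryonic fibroblasts (MEFs) was hybridized to 15 single-color Agilent microarrays, in 5 groups of 3 arrays. The cells were 3T3 fibroblasts, an established Balb/c line that was derived as a clone, so all groups share 1 genetic background and no tissue around the cells. The groups were controls without a cytokine, and MEFs given TNFα at 10 ng/ml, TGFß1 at 5 ng/ml, IL-1β at 1 ng/ml, or IL-6 at 20 ng/ml together with its soluble receptor sIL-6Rα at 25 ng/ml. Per the labels cells were kept for 24 or 72 h. The shorter time is the one of the microarrays in the study's account, which names control, TNFα and TGFß1 cells. No source used here names the time of the IL-1β and IL-6 arrays, and the part of a difference in time between these groups and the others was not tested. An array is named by its group and the number in its label.

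Subunits differ in what they hold. *Itga1*, *Itga2* and *Itga11* encode collagen-binding subunits and *Itga3* a laminin-binding subunit, and all of these pair with the product of *Itgb1*. *Itga5*, *Itga8* and *Itgav* encode subunits that recognize the short arginine-glycine-aspartate sequence of fibronectin, vitronectin and related proteins, and the receptors built on the *Itgav* product with a beta subunit such as those of *Itgb3* or *Itgb5* are also known to bind the latent form of TGFß1 and release it. In fibroblasts these receptors link the matrix to the actin cytoskeleton at focal adhesions.

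Levels are given as the log2 processed signal minus the 75th percentile of the array, so a level of 0 is the signal below which 75% of the probes lie. Levels of different probes have no common scale, and only differences of 1 probe between groups were compared, apart from a summed signal of the platelet markers. The labelled cell type was checked on markers. Of 12 fibroblast markers 12 were well above background on all 15 arrays, as were 6 of 12 leukocyte, 2 of 6 platelet, 1 of 7 endothelial and 1 of 9 epithelial markers. Those above background on all arrays were the leukocyte genes *Cd14*, *Cd68*, *Csf1r*, *Cd3e*, *Itgam* and *Itgal*, the platelet genes *Gp1bb* and *Ppbp*, the endothelial gene *Pecam1* and the epithelial gene *Itgb4*. The leukocyte genes *Ptprc*, *Adgre1*, *Itgax* and *Tyrobp*, the platelet genes *Gp9* and *Pf4*, the endothelial genes *Cdh5*, *Kdr*, *Tek*, *Tie1* and *Emcn* and the epithelial genes *Cdh1* and *Krt5* were not well above background on any array. In bulk RNA, fewer cells of a type and less RNA per cell cannot be told apart. The arrays lay on 2 slides (8 and 7 arrays). Within a group, the 5 pairs of arrays that shared a slide correlated at 0.987 to 0.991 over the probes (Pearson's r), and the 10 pairs that did not at 0.981 to 0.987.

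Against control, 6 of the 9 subunits that could be tested were called with TGFß1, where 17.9% of all probes were called, and 3 of 9 with TNFα, where 10.0% were. With TGFß1 *Itga5*, *Itgav*, *Itgb1*, *Itgb3* and *Itga11* rose, by 1.74-fold (*Itgav*) to 3.91-fold (*Itgb3*), and *Itga3* fell. *Itgb5*, whose product also pairs with that of *Itgav*, was not called (log2 difference 0.15). With TNFα *Itga11* and *Itga3* fell, and *Itga2* was called higher. The calls of *Itga3* with both cytokines rest on the brighter of its 2 probes. They were lost with the mean of both probes and with another background correction (normexp). *Itga2* was above background on the TNFα arrays and on no control array, and it entered the test only through the TNFα group. Its call was lost without control 1 or without TNFα 4 and could not be made where a probe had to be above background on all arrays. No subunit was called by limma with IL-1β (0.232% of all probes called) or with IL-6 and its receptor (0.0580%). A gene was called where the q-value of limma, adjusted over all 29334 probes tested, was below 0.05 and the absolute fold-change was at least 1.5. All comparisons with control share the same 3 control arrays. *Itga8* was not well above background on any of the 15 arrays and was not tested.

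**Figure D1:**
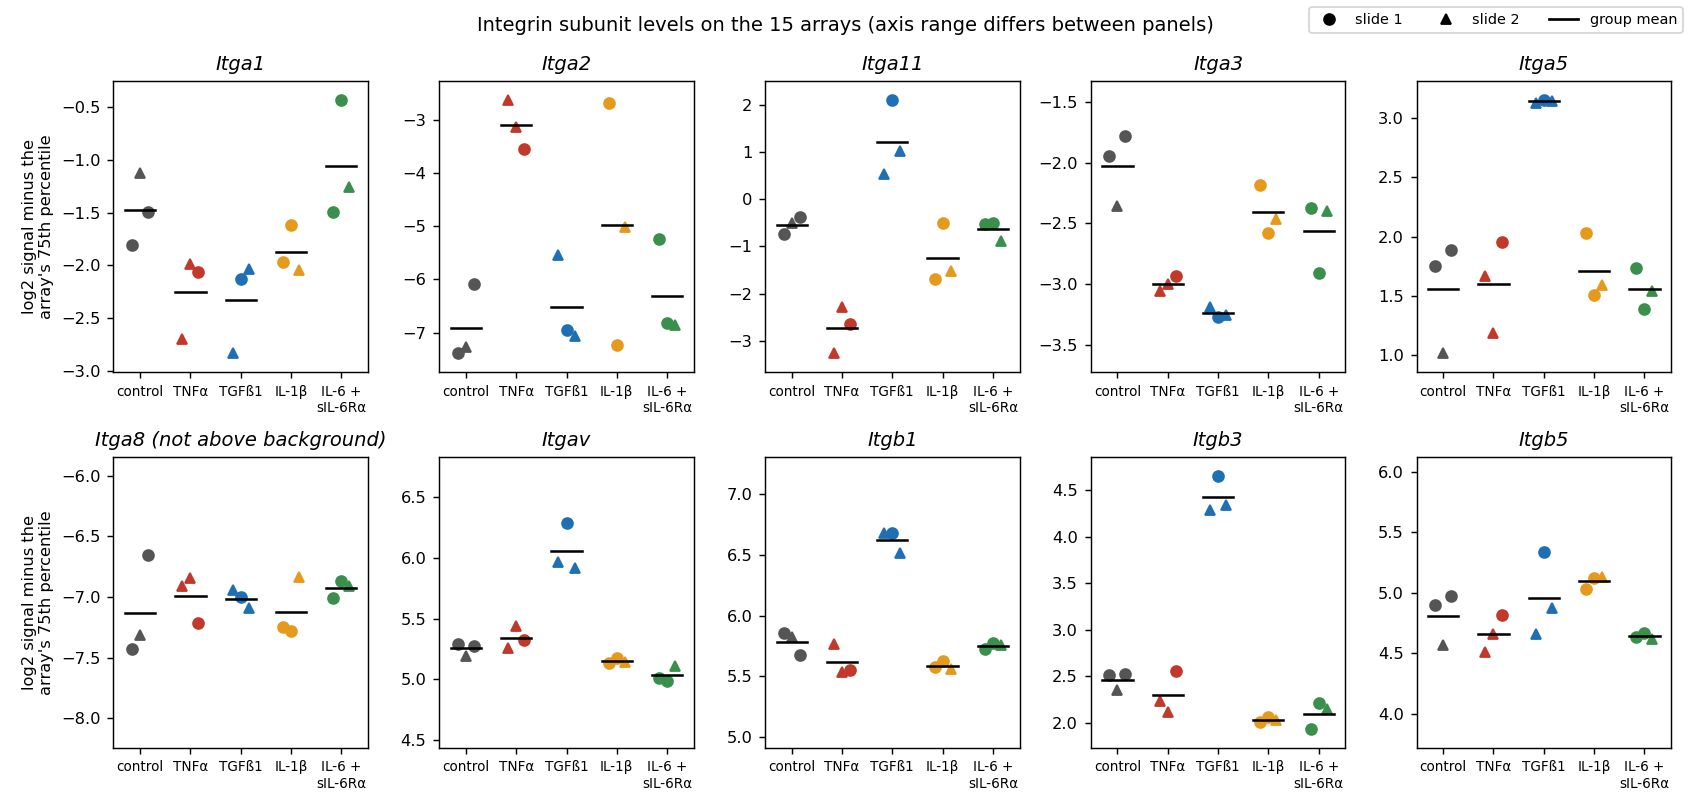
Level of each integrin subunit (log2 processed signal minus the 75th percentile of the array, y axis, with a different range in each panel) on the 3 arrays of each of the 5 groups (x axis). Each point is 1 array, circles lie on slide 1 and triangles on slide 2, and the line is the group mean. The TGFß1 arrays of *Itga5*, *Itgav*, *Itgb1* and *Itgb3* lie above all other arrays, and the TNFα arrays of *Itga11* lie below all other arrays.

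Promoter sequences are shown for the 3 members that carry the main patterns: *Itga2*, called higher with TNFα, *Itga11*, called in opposite directions with the 2 cytokines, and *Itgb1*, the shared partner that was called higher with TGFß1. They are the 250 bases before the annotated start, from RefSeq on GRCm38.p6, written 5′ to 3′ on the strand of the gene, with capitals for CAGAC, a sequence known to be bound by SMAD proteins, or its reverse complement GTCTG. *Itga2* lies on chr13:114932101-114932350, minus strand, *Itga11* on chr9:62677605-62677854, plus strand, and *Itgb1* on chr8:128685404-128685653, plus strand.
Itga2: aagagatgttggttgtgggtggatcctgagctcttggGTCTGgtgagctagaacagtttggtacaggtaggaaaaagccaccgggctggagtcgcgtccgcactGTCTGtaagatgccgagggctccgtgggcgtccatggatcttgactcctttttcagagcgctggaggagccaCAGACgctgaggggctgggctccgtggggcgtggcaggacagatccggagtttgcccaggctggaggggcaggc
Itga11: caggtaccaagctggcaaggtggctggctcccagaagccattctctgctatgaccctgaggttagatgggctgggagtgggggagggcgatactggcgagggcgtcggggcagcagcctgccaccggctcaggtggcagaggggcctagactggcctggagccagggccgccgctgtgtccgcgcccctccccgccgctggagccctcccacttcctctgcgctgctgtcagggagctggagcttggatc
Itgb1: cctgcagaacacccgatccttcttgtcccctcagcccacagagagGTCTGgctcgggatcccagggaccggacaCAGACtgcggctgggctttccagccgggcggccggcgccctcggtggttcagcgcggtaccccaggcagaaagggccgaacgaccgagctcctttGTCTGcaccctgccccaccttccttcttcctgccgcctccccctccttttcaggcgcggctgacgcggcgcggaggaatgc

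The *Itga2* window held 3 matches, at 213, 146 and 74 bases before the start, and the *Itgb1* window held 3, at 205, 176 and 81 bases. The *Itga11* window held none. Entries were found for 9 of the 10 members, and *Itga1* and *Itga3* held 1 match each while *Itga5*, *Itga8*, *Itgav* and *Itgb5* held none. CAGAC or GTCTG stood in 42.2% of all 32851 promoter windows, so a match is common. TGANTCA (the AP-1 element, in 6.75% of all windows), TATAAA (12.4%) and the kappaB motif of NF-kB (7.25%), each searched on both strands, were found in no member. GGAATG (the TEAD element, 12.6% of windows) was found once, in *Itgb1*, 7 bases before the start. GGGCGG (the Sp1 element, 32.7%) was found in *Itga3*, *Itga5*, *Itgb1* and *Itgb5*. These matches describe the letters of the windows and nothing about binding.

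*Itga11* encodes the alpha subunit of a receptor for fibrillar collagens that is typical of fibroblasts. Its level was -0.74, -0.51 and -0.38 on controls 1, 6 and 11, -3.26, -2.29 and -2.65 on TNFα 4, 9 and 14, and 0.54, 2.10 and 1.02 on TGFß1 2, 7 and 12. It was -1.70, -0.50 and -1.52 on IL-1β 5, 10 and 15, and -0.53, -0.51 and -0.89 on IL-6 3, 8 and 13. The TNFα arrays were the lowest of the 15 and the TGFß1 arrays the highest, and neither overlapped any other group, while the IL-1β and IL-6 arrays overlapped the controls. Compared to control, *Itga11* was 4.57-fold lower with TNFα (log2 difference -2.19, SE 0.39, q = 0.00306) and 3.40-fold higher with TGFß1 (1.77, SE 0.39, q = 0.00653). TNFα and TGFß1 differed by -3.96 on the log2 scale (SE 0.39, q = 2.22e-05), the widest measured range of group means. That of *Itga2* (3.81) rests on arrays not well above background, so the order of these 2 is not settled, and on slide 2 alone *Itga2* had the larger value (4.39 for TNFα against control). With normexp in place of the software's background subtraction, the TNFα difference was -1.38, still called.

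*Itga2* encodes the alpha subunit of the collagen receptor known best from platelets and epithelia. Its level was -7.39, -7.27 and -6.09 on the control arrays, where it was not well above background, and -2.63, -3.13 and -3.56 on the TNFα arrays, where it was above background on all 3. The levels were -5.55, -6.95 and -7.07 with TGFß1 and -5.25, -6.82 and -6.86 with IL-6, not well above background on any of these arrays. With IL-1β they were -2.69, -7.23 and -5.01, and only IL-1β 5 was above background. The TNFα arrays thus lay above all control, TGFß1 and IL-6 arrays, and IL-1β 5 lay among them. *Itga2* entered the test only through the TNFα group. It was at least 3.27-fold higher with TNFα than in control (measured log2 difference 3.81, SE 0.90, q = 0.0149), at least 3.08-fold higher than with TGFß1 (q = 0.0210) and at least 2.82-fold higher than with IL-6 (q = 0.0392). These bounds set the mean of the TNFα arrays against, for each dim array, the higher of the probe's own level and the dimmest level well above background on that array. Here and below, such bounds are point values without an error, and they apply to the software's processed signal only. The call against control was lost without control 1 (3.58, q = 0.0504) or without TNFα 4 (3.57, q = 0.0642), and the call against TGFß1 was lost without TNFα 4 (q = 0.0721), TNFα 9 (q = 0.0605), TGFß1 7 (q = 0.0716) or TGFß1 12 (q = 0.0758). With normexp the difference from control was 0.82, still called, and that from TGFß1 was 0.67, not called. Both are smaller than the bounds, which are 1.71 and 1.625 on the log2 scale.

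*Itga1*, the third collagen-binding subunit, missed the threshold. Its brighter probe lay at -1.81, -1.12 and -1.50 on the control arrays, -2.70, -1.98 and -2.07 on the TNFα arrays, and -2.83, -2.13 and -2.03 on the TGFß1 arrays. All arrays of both cytokines lay below all control arrays. The levels were -1.97, -1.61 and -2.04 with IL-1β and -1.49, -0.43 and -1.26 with IL-6, so that both groups overlapped the controls. The difference from control was -0.78 with TNFα (SE 0.31, q = 0.128) and -0.86 with TGFß1 (SE 0.31, q = 0.0614), neither called. The label numbers form 3 runs of 5 that hold 1 array of every group, and with the run as a block both differences were called (-0.78, q = 0.0115, and -0.86, q = 0.00434), as they were with slide and run as blocks (-0.73, q = 0.00848, and -0.81, q = 0.00328). The labels do not say whether a run is an experiment. The dimmer probe of *Itga1* gave 0.22 with TNFα (SE 0.50) and -0.07 with TGFß1 (SE 0.50), not called.

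*Itga3* encodes the alpha subunit of a laminin receptor. Its brighter probe lay at -1.95, -2.36 and -1.78 on the control arrays, -3.06, -3.00 and -2.93 with TNFα and -3.19, -3.28 and -3.26 with TGFß1. The levels were -2.19, -2.58 and -2.46 with IL-1β and -2.37, -2.91 and -2.40 with IL-6. Both the TNFα and the TGFß1 arrays lay below every array of the other 3 groups, and the highest IL-6 array lay just under the lowest control. *Itga3* was 1.96-fold lower with TNFα (-0.97, SE 0.17, q = 0.00306) and 2.32-fold lower with TGFß1 (-1.22, SE 0.17, q = 0.000401), and the direct difference between the cytokines, 0.24 (SE 0.17, q = 0.432), was not called. With normexp both differences fell short of the fold criterion (-0.52 and -0.58). The dim second probe, above background on 8 of 15 arrays, gave 0.01 with TNFα and -0.12 with TGFß1 (SE 0.58 in both), and the mean of both probes gave -0.48 (q = 0.401) and -0.67 (q = 0.169), not called.

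*Itga5* encodes the alpha subunit of the classical fibronectin receptor. Its level was 1.76, 1.02 and 1.89 on the control arrays, 1.67, 1.19 and 1.95 on the TNFα arrays, and 3.13, 3.15 and 3.14 on the TGFß1 arrays. It was 2.03, 1.51 and 1.59 with IL-1β and 1.73, 1.39 and 1.55 with IL-6. The TGFß1 arrays stood above all other 12 arrays, which overlapped each other in every pair of groups. *Itga5* was 3.00-fold higher with TGFß1 than in control (1.58, SE 0.24, q = 0.000587), and lower with TNFα than with TGFß1 by -1.54 on the log2 scale (SE 0.24, q = 0.000747). With TNFα alone its difference from control was 0.05 (95% confidence interval -0.47 to 0.57).

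*Itgav* encodes the alpha subunit shared by the vitronectin receptors. Its level was 5.29, 5.19 and 5.28 on the control arrays, 5.26, 5.44 and 5.33 with TNFα, and 5.97, 6.29 and 5.92 with TGFß1. The levels were 5.13, 5.18 and 5.14 with IL-1β and 5.01, 4.98 and 5.11 with IL-6. Every TGFß1 array was higher than every other array, and the IL-1β and IL-6 arrays lay under the lowest control. *Itgav* was 1.74-fold higher with TGFß1 (0.80, SE 0.11, q = 0.000311), and TNFα differed from TGFß1 by -0.72 (SE 0.11, q = 0.000684).

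Of the beta subunits, *Itgb1* serves all of the alpha subunits named here. Its level was 5.86, 5.82 and 5.68 on the control arrays, 5.76, 5.54 and 5.55 with TNFα, 6.68, 6.68 and 6.51 with TGFß1, 5.57, 5.62 and 5.56 with IL-1β, and 5.72, 5.77 and 5.76 with IL-6. The TGFß1 arrays stood apart from the 12 others. The difference from control was 0.84 with TGFß1 (1.79-fold, SE 0.10, q = 0.000119), and the second probe gave 1.00 (SE 0.25, q = 0.0126). TNFα and TGFß1 differed by -1.01 (SE 0.10, q = 2.22e-05).

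*Itgb3* pairs with the *Itgav* product in fibroblasts and with the *Itga2b* product in platelets. Its brighter probe lay at 2.51, 2.35 and 2.53 on the control arrays, 2.23, 2.11 and 2.56 with TNFα, and 4.29, 4.66 and 4.35 with TGFß1. With IL-1β the levels were 2.01, 2.06 and 2.03 and with IL-6 1.94, 2.21 and 2.14. The TGFß1 arrays lay above all others, and the IL-1β and IL-6 arrays lay below all controls. *Itgb3* was 3.91-fold higher with TGFß1 (1.97, SE 0.14, q = 2.81e-06), and the second probe gave 2.35 (SE 0.22, q = 1.8e-05). Its lead over *Itga11* (1.77, SE 0.39) was within the error of the latter, and *Itga11* was ahead without TGFß1 2 (2.11, against 2.04 for *Itgb3*) and on slide 1 alone (2.66, against 2.14), as *Itga5* was on slide 2 alone (2.11, against 1.97). TNFα and TGFß1 differed by -2.13 (SE 0.14, q = 8.65e-07). The lower levels with IL-1β (-0.43, q = 0.719) and with IL-6 (-0.37, q = 1) were not called.

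*Itgb5*, whose product also pairs with that of *Itgav*, had the narrowest range of group means of the 9 subunits. Its levels were 4.90, 4.57 and 4.97 on the control arrays, 4.51, 4.66 and 4.82 with TNFα, 4.66, 5.33 and 4.88 with TGFß1, 5.03, 5.12 and 5.13 with IL-1β, and 4.64, 4.67 and 4.62 with IL-6. Only the IL-1β arrays did not overlap the controls. The 5 group means spanned 0.45 on the log2 scale, and no comparison with control was called. With TGFß1 the difference was 0.15 (95% confidence interval -0.21 to 0.50).

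**Figure D2:**
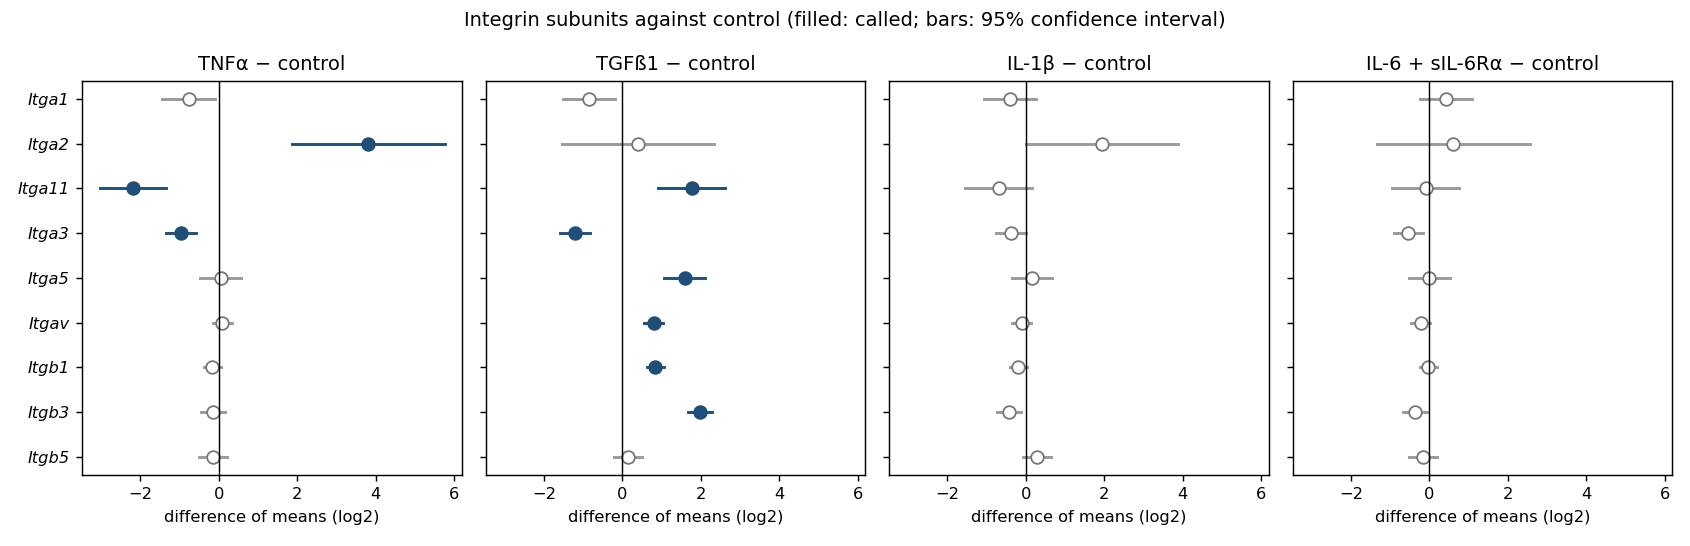
Difference of group means from control (x axis, log2) for the 9 subunits tested, with 1 panel for each cytokine. Points are the difference fitted by limma over all 15 arrays, bars its 95% confidence interval, and filled points are called. *Itga11* lies at -2.19 with TNFα and at 1.77 with TGFß1, and no point is filled in the panels of IL-1β and IL-6.

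Counted over the 9 subunits, 3 were called with TNFα (1 higher, 2 lower), where 10.0% of all probes tested were called (4.09% higher and 5.96% lower). With TGFß1 6 were called (5 higher, 1 lower), where 17.9% of all probes were called (7.51% higher and 10.4% lower). The study chose *Itga5*, *Itga11* and *Itgb3* for its gene signature in part from such arrays, and the members were named with earlier results known. The counts are therefore no independent evidence about integrins. The median difference of the 9 subunits was -0.16 with TNFα and 0.80 with TGFß1, and over all probes 0.04 and 0.07. In TNFα against TGFß1 the count was 6 of 9 (1 higher and 5 lower with TNFα), where 11.8% of all probes were called (6.61% higher and 5.17% lower). The arrays of the 2 groups did not overlap for 4 of 9 subunits with TNFα (28.9% of all probes), 7 of 9 with TGFß1 (38.8%) and 7 of 9 between TNFα and TGFß1 (34.2%). *Itga2* is in these counts with TNFα and between TNFα and TGFß1, both of calls and of arrays without overlap. It entered the test only through the TNFα group, so its place in them depends on that entry. The split of calls over all probes moved with the scaling, from 1199 higher and 1749 lower with TNFα to 689 and 1635 when each array was centred on its median, and from 2202 and 3048 with TGFß1 to 1700 and 3721 when the percentile was taken over probes above background on all arrays. The subunits called with TNFα numbered 3 under both scalings, and those with TGFß1 6 under the median and 7 under that percentile, where *Itga1* was called as well (-0.95, q = 0.0480).

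With IL-1β and with IL-6 and its receptor limma called 0 of 9 subunits, and at an unadjusted p below 0.05 both comparisons held *Itga3* and *Itgb3*, 2 of 9 each. Of all 29334 probes tested, 1060 with IL-1β and 934 with IL-6 lay below that unadjusted p. Arrays did not overlap the controls for 4 of 9 subunits with IL-1β (*Itgav*, *Itgb1*, *Itgb3* and *Itgb5*; 5.32% of all probes) and for 3 of 9 with IL-6 (*Itga3*, *Itgav* and *Itgb3*; 5.04%). Their intervals still allow differences. For *Itga11* with IL-1β the difference was -0.69, with a 95% confidence interval of -1.55 to 0.16. Set against the other cytokines, 1 of 9 was called between IL-1β and TNFα (4.69% of all probes), which was *Itga11*, 2.82-fold higher with IL-1β (q = 0.0446). Between IL-6 and TNFα 3 of 9 were called (8.59%): *Itga11*, higher with IL-6 by 2.09 (q = 0.00439), *Itga1*, higher by 1.19 (q = 0.0264), and *Itga2*, lower as given above. *Itga2* entered the test only through the TNFα group, so its place in this count depends on that entry too. TGFß1 differed from IL-1β in 6 of 9 subunits (16.9%) and from IL-6 in 7 of 9 (16.3%), and *Itga1* was the member called in the second and not the first, higher with IL-6 by 1.27 (SE 0.31, q = 0.0112). Both calls of *Itga1* with IL-6 rest on its brighter probe. The dimmer probe gave 0.14 against TNFα (SE 0.50, q = 0.897) and 0.43 against TGFß1 (SE 0.50, q = 0.581). The dimmer probe of *Itga3* was called in neither comparison with TGFß1. For *Itgb3* the dimmer probe was called lower with IL-6 than with TNFα (-0.90, q = 0.0184), and the brighter was not (-0.21). Between IL-1β and IL-6 limma called 0 of 9 (0.399% of all probes), with 2 of 9 at an unadjusted p below 0.05, against 1374 of all 29334 probes.

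When the 5 groups were put in order of their mean for each subunit, 6 of 36 pairs of neighbours differed by the same rule, in 5 genes. The share of such pairs over all probes was not computed, so the count is not read as a result about the subunits. TGFß1 was set apart at the top for *Itga5* (from IL-1β, by 1.43), *Itgav* (from TNFα, by 0.72), *Itgb1* (from control, by 0.84), *Itgb3* (from control, by 1.97) and *Itga11* (from control, by 1.77). At the bottom, TNFα was set apart for *Itga11* (from IL-1β, 2.82-fold). No neighbours of *Itga1*, *Itga2*, *Itga3* and *Itgb5* met the rule, although for *Itga3* the IL-6 arrays lay above the TNFα arrays without overlap (0.44, 95% confidence interval 0.06 to 0.82, q = 0.147), and the TNFα arrays lay above the TGFß1 arrays.

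Each slide held arrays of all 5 groups, so that the differences could be read within a slide. With TNFα against control, *Itga11* was at -2.05 with the slide as a block, -2.09 on slide 1 and -2.27 on slide 2, and *Itga3* at -0.95, -1.07 and -0.67. *Itga2* was measured at 3.82, 3.18 and 4.39 against control arrays that were not well above background, so these values are no sizes. The 3 genes had 1 sign in all of these. With TGFß1 against control, in the same order, *Itga3* was at -1.19, -1.41 and -0.87, *Itga5* at 1.69, 1.33 and 2.11, and *Itga11* at 1.91, 2.66 and 1.29. *Itgav* was at 0.82, 1.00 and 0.75, *Itgb1* at 0.84, 0.91 and 0.78, and *Itgb3* at 2.02, 2.14 and 1.97. In TNFα against TGFß1, slides 1 and 2 gave -1.20 and -1.70 for *Itga5*, -4.75 and -3.56 for *Itga11*, -0.96 and -0.59 for *Itgav*, -1.12 and -0.95 for *Itgb1*, and -2.10 and -2.14 for *Itgb3*. Slide 1 held 2 control arrays and 1 array each of TNFα and TGFß1, and slide 2 held 1 control array and 2 of each cytokine. Each comparison with control on 1 slide thus has a group of 1 array that is assumed to vary like the other groups. On slide 1 TNFα and TGFß1 are compared by 1 array each. These fits are therefore given as sizes only, and no calls are read from them.

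**Figure D3:**
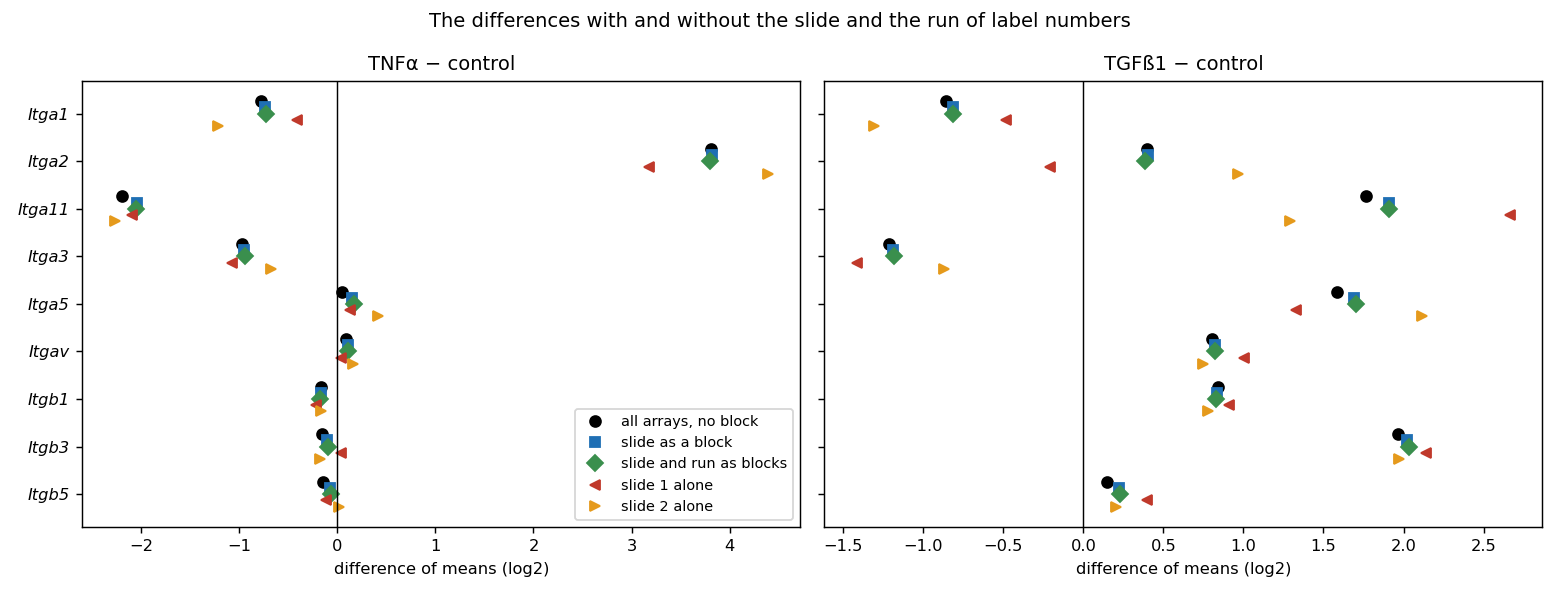
Difference from control (x axis, log2) for the 9 subunits with TNFα (left) and TGFß1 (right), fitted over all arrays, with the slide as a block, with slide and run of label numbers as blocks, and on each slide alone. The called subunits keep their side of 0 in all 5 fits, and the widest split between slides among them is that of *Itga11* with TGFß1 (2.66 on slide 1, 1.29 on slide 2).

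The genes with 2 probes allowed a check within a gene. Both probes of *Itgb1* and of *Itgb3* were called higher with TGFß1 and not called with TNFα. For *Itga1* and *Itga3* the dimmer probe was called in neither comparison. The probe differences for *Itga3* were 0.01 (95% confidence interval -1.24 to 1.26) with TNFα and -0.12 (-1.37 to 1.14) with TGFß1 on the dimmer probe, intervals that hold the differences of the brighter probe.

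**Figure D4:**
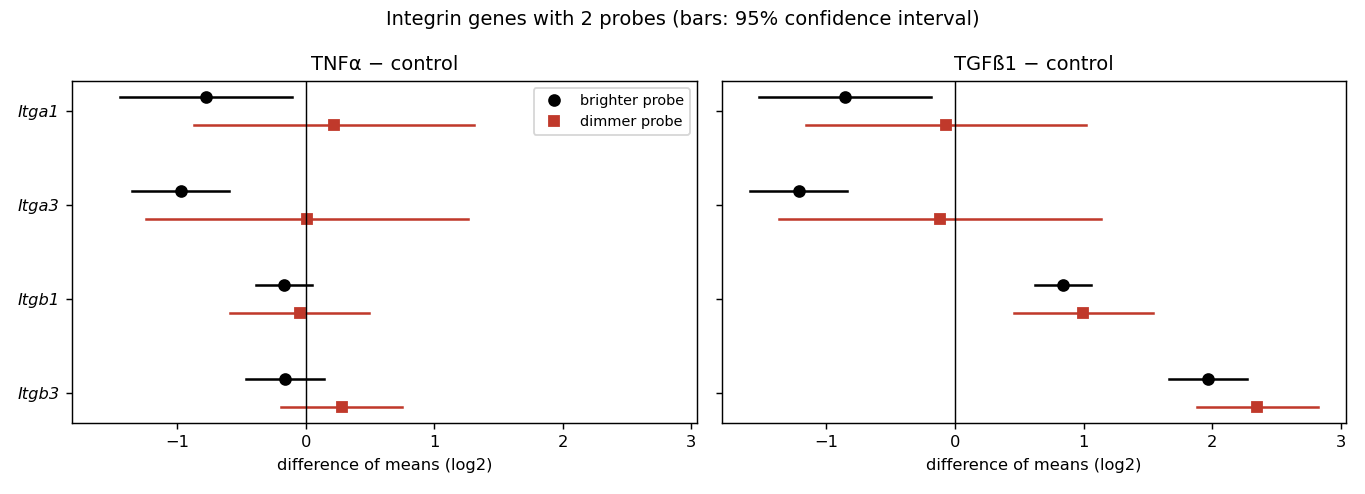
Difference from control (x axis, log2) for the 4 subunits with 2 probes, with the brighter probe as circles and the dimmer as squares, and bars for the 95% confidence interval, with TNFα (left) and TGFß1 (right). The probes of *Itgb3* lie at 1.97 and 2.35 with TGFß1, and the dimmer probes of *Itga1* and *Itga3* lie close to 0.

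Of the 18 other integrin genes 11 were tested, and *Itga4*, *Itga9*, *Itgax*, *Itgb8*, *Itgb2l* and *Itgbl1* were not well above background on any array. With TNFα 2 of 11 fell and 0 rose (18.2% called, against 10.0% of all probes), and with TGFß1 1 rose and 2 fell (27.3%, against 17.9%). *Itga7*, a laminin-binding subunit known from muscle, rose 3.54-fold with TGFß1 (1.82, SE 0.23, q = 0.00018). *Itga2b*, the platelet partner of *Itgb3*, was called lower with TNFα, where 1 of 3 arrays was above background (measured difference -1.51, SE 0.19, q = 0.000239), and was at least 2.94-fold lower with TGFß1 than in control, since no TGFß1 array was well above background (q = 1.95e-05). *Itgad*, a leukocyte subunit, was above background on the control arrays and on no TNFα or TGFß1 array, and it entered the test only through the control group. It was at least 1.24-fold lower with TNFα and at least 1.23-fold lower with TGFß1 (q = 0.0144 and 0.0322). These calls depend on that entry, and both counts of falls above include them. The summed signal of the 6 platelet markers, *Itga2b* among them, was 0.625 to 0.773 times the 75th percentile in control, 0.615 to 0.736 with TNFα and 0.341 to 0.47 with TGFß1. The mean log2 level of *Itga2b* itself was -3.18 in control and -5.20 with TGFß1. This sum adds probes without a common scale, and the part of the other platelet genes in it was not tested. The median difference of the 11 genes was -0.12 with TNFα and 0.03 with TGFß1.

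Among the related lists, ligands of integrins had the largest share of calls with both cytokines. Of 39 genes for matrix and cell-surface ligands 35 were tested. With TNFα 5 rose and 13 fell (51.4% of them, against 10.0% of all probes, median -0.36), and with TGFß1 11 rose and 10 fell (60%, against 17.9%, median 0.39). *Icam1*, a ligand of leukocyte integrins, rose 60.6-fold with TNFα (5.92, SE 0.25, q = 4.52e-08), and the matrix protein *Tnc*, which integrins of the *Itgav* product bind, rose 5.96-fold (2.58, SE 0.28, q = 8.04e-05). *Col6a2* and *Col3a1*, which encode collagen chains, fell with TNFα as well (-2.15, q = 0.000265, and -2.17, q = 0.00651). The list held 10 collagen genes, all of which fell with TNFα. With TGFß1 they went both ways, as *Col1a1*, *Col5a1* and *Col6a3* rose, *Col4a1*, *Col4a2*, *Col6a1* and *Col6a2* fell, and *Col1a2*, *Col3a1* and *Col5a2* were not called. With TGFß1 the leading rises were *Tnc* (3.22, q = 1.12e-05) and the connective tissue growth factor *Ccn2* (3.08, q = 0.000204). The leading falls were *Lama4*, a laminin chain (-1.55, q = 0.00114), and *Icam1*, which was at least 3.09-fold lower. The fibronectin gene *Fn1*, named here after its values were seen, as were the collagens, rose with TGFß1 (0.81, SE 0.22, q = 0.02). With IL-1β 3 of 35 ligand genes rose (8.57%, against 0.232% of all probes), of which *Icam1* rose 3.76-fold (q = 0.00551), the laminin chain *Lamb3* was at least 1.94-fold higher (q = 0.00961), and *Nid1*, named after its value was seen, rose as well (0.70, q = 0.0105). *Lamb3* was well above background on no control array, on 2 TNFα arrays, and on 3 arrays each with TGFß1 and IL-1β. It entered the test through the TGFß1 and IL-1β groups, where it was high, so its calls depend on that entry. The counts of rises with TNFα, TGFß1 and IL-1β all include it, with a bound of only 1.03-fold for TNFα. With IL-6 limma called 0 of 35, with 6 at an unadjusted p below 0.05, against 934 of all 29334 probes.

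Other lists held proteins that work with integrins at the membrane and inside the cell. Of 13 associated membrane proteins 2 fell with TNFα, the tetraspanin *Cd9* (-0.68, q = 0.00805) and the caveolar coat protein *Cav1* (-1.18, q = 0.00892). With TGFß1 2 rose, the urokinase receptor *Plaur* (1.55, q = 0.00935) and the syndecan *Sdc1* (1.19, q = 0.00278), and 2 fell, *Sdc4* (-0.95, q = 0.00397) and the tetraspanin *Cd82* (-1.52, q = 0.000183). These were 15.4% and 30.8% of the list. Of 25 cytoplasmic adaptors and activators tested 2 rose and 3 fell with TNFα (20%), and 6 rose and 1 fell with TGFß1 (28%), where 10.0% and 17.9% of all probes were called. The focal adhesion proteins *Parvb* and *Tln2* rose with TGFß1 (1.90, q = 0.00504, and 1.84, q = 1.37e-06). The tensin *Tns2* fell with both cytokines (-1.58, q = 0.000589, and -1.59, q = 0.000354), the tensin *Tns1* fell with TNFα (-1.35, q = 0.00657), as did the adaptor *Lims2*, named after its value was seen (-1.27, q = 0.0141), and the tensin *Tns3* and the small GTPase *Rap1b* rose with TNFα (0.96, q = 0.00017, and 0.93, q = 0.000621). Of 5 inhibitors of integrin activation *Dok1* rose with TGFß1 (1.01, q = 0.00524), and with TNFα limma called 0 of 5. With TNFα 1 of the 5 had an unadjusted p below 0.05, against 7612 of all 29334 probes. In the 4 lists other than the ligands limma called 0 of 54 genes with IL-1β and 0 of 54 with IL-6, with 3 and 4 at an unadjusted p below 0.05. Of all 29334 probes, 1060 and 934 lay below that unadjusted p. The lists were not tested as sets.

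**Figure D5:**
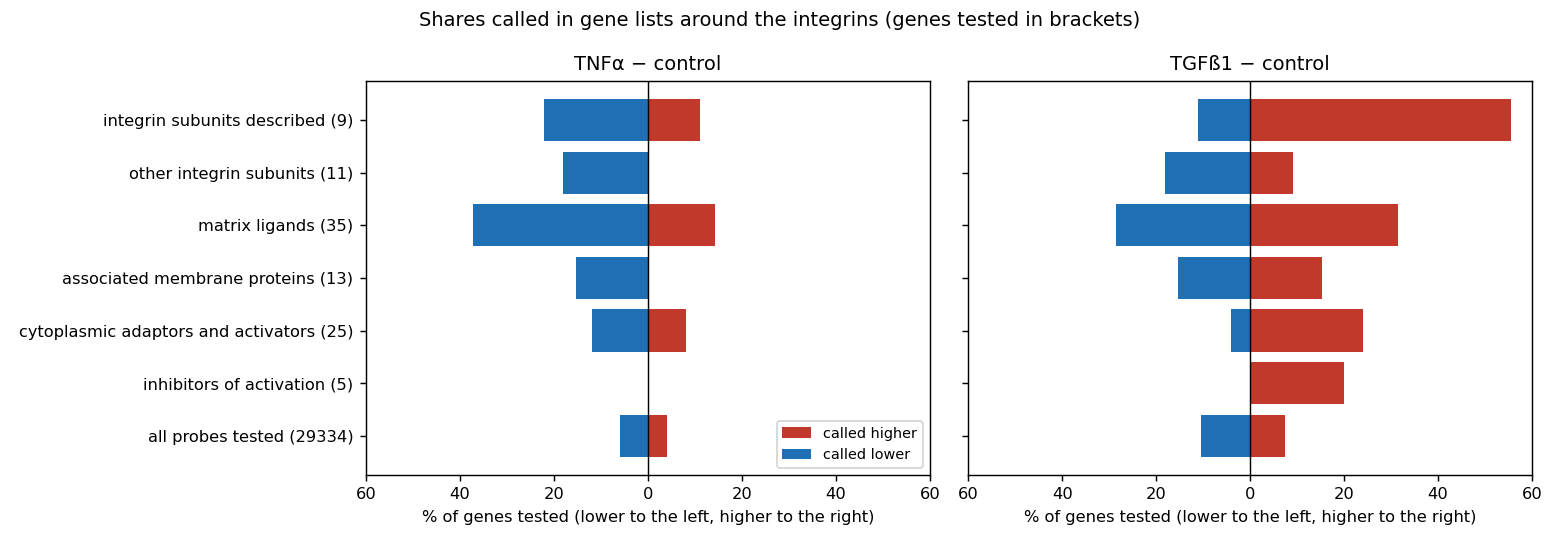
Share of genes called lower (to the left) and higher (to the right), in percent of the genes tested in each list (number in brackets), with TNFα (left panel) and TGFß1 (right panel), for the integrin subunits described, 5 related lists and all probes tested. Matrix and cell-surface ligands had the highest share of calls with TNFα (51.4%, against 10.0% of all probes), and the subunits described had 66.7% called with TGFß1, against 17.9% of all probes. Members and lists were chosen with earlier results of these data known.

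*Itga11*, the subunit with the widest measured range (that of *Itga2* rests on dim arrays), was set against 13486 other genes over the 15 arrays, and the 5 with the highest Pearson's r were *Pank3* (0.977), *Anxa4* (0.974), *Gng11* (0.972), *Mamdc2* (0.972) and *Fam160b1* (0.97). These values describe likeness over arrays that share the same groups, cells and scaling. The mean level of *Gng11* was 5.27 in control, 4.00 with TNFα, 6.30 with TGFß1, 4.88 with IL-1β and 5.08 with IL-6. That of *Mamdc2* was -1.43, -2.79, -0.46, -1.78 and -1.66 in the same order, so both had their lowest mean with TNFα and their highest with TGFß1.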

How the data were processed

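RNA of 15 MEF samples was measured on single-color arrays, 3 per group, grouped by their labels. Per the file headers, the deposited intensity values are processed signals of Agilent Feature Extraction 10.7.3.1, after the software's background subtraction and detrending, with no normalization between arrays. A deposited matrix of the series held the same intensities (largest difference 0). The study describes 3 independent experiments, but the labels do not say which arrays share one, so p-values may measure technical spread in part.

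Of 62976 spots per array, 59305 were not controls. Spots that the software marked as non-uniform or as outliers of their population were dropped (0 for the members). Each probe took the mean log2 signal of its spots, less the 75th percentile of its array (325 to 445 before log2). A probe counted as above background where a share of 0.5 or more of its spots had the software's mark for this (48.3% to 54.9% of probes per array), and 29334 probes that passed on all arrays of some group were tested. No spot was saturated. Since intensities hold no counts, precision rests on how many arrays there are.

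Gene names came from RefSeq transcripts of GRCm38.p6 (33767 of 56605 probes), and no positions are given for probes because the array was designed on another build (promoter positions are those of RefSeq). A gene is represented by its probe with the highest mean over the 15 arrays. A model with 1 mean per group was fitted to all 15 arrays by limma 3.58.1 (R 4.3.3; data.table, version 1.17.8), with moderated two-sided tests adjusted by Benjamini-Hochberg over all probes of a comparison, after a test on simulated data. The members and lists were chosen with earlier results of these data known. Named are all members, the 2 called genes with the highest and the 2 with the lowest change per list and comparison with control, and the 5 genes most like the member of widest range. Alternatives changed the scaling, background (normexp, offset 50, on median and background intensities), filter, marked spots, blocks, slides, arrays fitted, probe choice and fold criterion, and left out each array. The percentile over probes above background on all arrays was added after seeing the data.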

Additional observations from a re-analysis of the deposited data

How the results depend on the processing

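The counts of subunits called stayed within 1.5 times their value under all alternatives but the fits of a single slide. Those fits left groups of 1 array and are read for sign and size only. Leaving out in turn each of the 6 arrays of the 2 groups compared gave 2 to 3 calls with TNFα, 6 with TGFß1 and 5 to 6 between them. Fits without an array of another group were not read for a comparison. With the slide, or slide and run, as blocks, 6 of 36 neighbouring means differed as before. Of the subunit values, 906 kept their sign and call, 25 lost a call, 5 gained one (all *Itga1*), and 31 changed sign, none of them called on either side. This tally includes the fits of a single slide, and the cause was not tested. With arrays centred on the median the changes of sign were *Itga5* with TNFα (-0.05) and IL-6 (-0.025), *Itgav* with TNFα (-0.013) and *Itga1* in TNFα against TGFß1 (-0.016). Quantile normalization gave -0.016 for *Itgb5* with TGFß1 and -0.007 for *Itga1* in TNFα against TGFß1. *Itga5* with IL-6 was -0.001 with the percentile over probes above background on all arrays, chosen after seeing the data, and 0 with marked spots kept. On slide 1 alone *Itgb3* with TNFα was 0.04, *Itga2* with TGFß1 -0.21, *Itga5* with IL-1β -0.052 and with IL-6 -0.263, and *Itga11* with IL-6 0.042. On slide 2 alone *Itgb5* was 0.019 with TNFα and 0.056 with IL-6, and *Itga1* -0.132 with IL-6. The mean of all probes gave 0.06 for *Itgb3* with TNFα and 0.064 for *Itga3* with IL-1β. Leaving out 1 array gave -0.219 to 0.257 for *Itga5* with TNFα, -0.112 to 0.324 with IL-1β and -0.268 to 0.168 with IL-6, -0.09 to 0.807 for *Itga2* and -0.042 to 0.293 for *Itgb5* with TGFß1, -0.198 to 0.024 for *Itga11* and -0.089 to 0.003 for *Itgb1* with IL-6, and -0.169 to 0.306 for *Itga1* in TNFα against TGFß1. Signal near background limits *Itga2* and the dimmer probe of *Itga3*.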
